A study of Mus musculus with 8 samples.

Results

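Muscle stores readily used phosphate bonds as phosphocreatine. Creatine kinases pass phosphate between ATP and creatine at the mitochondrion, where ATP is made, and at the myofibrils and pumps, where it is spent. Adenylate kinases join in by turning a pair of ADP molecules into ATP and AMP. Creatine itself is either made, beginning with the enzyme glycine amidinotransferase, or taken up from the blood by a transporter. The genes of this exchange system were examined in the left ventricle of mice made hypertensive with angiotensin II (ANG II), and they were chosen by name. They were the creatine kinases Ckm, Ckmt2, Ckb and Ckmt1, the synthesis enzyme Gatm, the transporter Slc6a8, and the adenylate kinases Ak1, Ak3 and Ak4. All 9 names were found once each among the 55679 genes of the deposited table, and all 9 passed the filter on low values (a mean of at least 0.1 FPKM), which left 19364 genes tested.

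The transcripts of left ventricles from male wild-type C57BL/6J mice were sequenced. The 4 ANG II mice received ANG II at 1500 ng/kg/min for 7 days from an osmotic pump placed under the skin, and the 4 control mice received saline for 7 days in the same way. The age of the mice was not given in the sources used here. Values are FPKM, fragment counts divided by transcript length and by the size of the library, and the steps of the low values gave 14455689 to 16564870 fragments per library. Fold changes are ANG II against control, as differences of log2(FPKM + 1) in limma with Benjamini-Hochberg adjustment over all genes tested. Calls needed both an adjusted p under 0.05 and a log2 fold change beyond 0.5 in either direction.

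The samples are bulk tissue, so fewer cells of a type and less RNA per cell cannot be told apart. The labels give left ventricle as the tissue, although their extraction text names CRC cells. All 10 cardiomyocyte markers were detected, with a summed level of 51961 to 52872 FPKM in control and 39092 to 41630 FPKM in ANG II. Of these 10 markers, 6 were lower at an adjusted p under 0.05 (4.91% of all tested genes) and 2 were called lower, Myh6 and Tnni3 (1.41%). Mitochondrially encoded genes took 26.3 to 27.0% of the fragments in control and 19.2 to 21.8% in ANG II, and the median log2 fold change of all tested genes was 0.15. A change given relative to all genes has this median subtracted.

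The genes parted in 2 directions. Gatm and Ckb rose in ANG II and were called (2 of 9, against 14.0% of all tested genes called higher and 15.4% called either way), and they were also the 2 of 9 that were higher by adjusted p alone (28.4% of all tested genes). Ckm, Ak1 and Ak3 fell at an adjusted p under 0.05 (3 of 9, against 4.91% of all tested genes), with changes too small to be called, so that 0 of 9 were called lower (1.41% of all tested genes). Ckmt2, Ckmt1, Slc6a8 and Ak4 did not pass the test. The 4 ANG II libraries lay wholly above the controls at 2 genes (28.7% of all tested genes) and wholly below them at 4 genes (5.06%). The median log2 fold change of the 9 genes was -0.19.

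**Figure D1:**
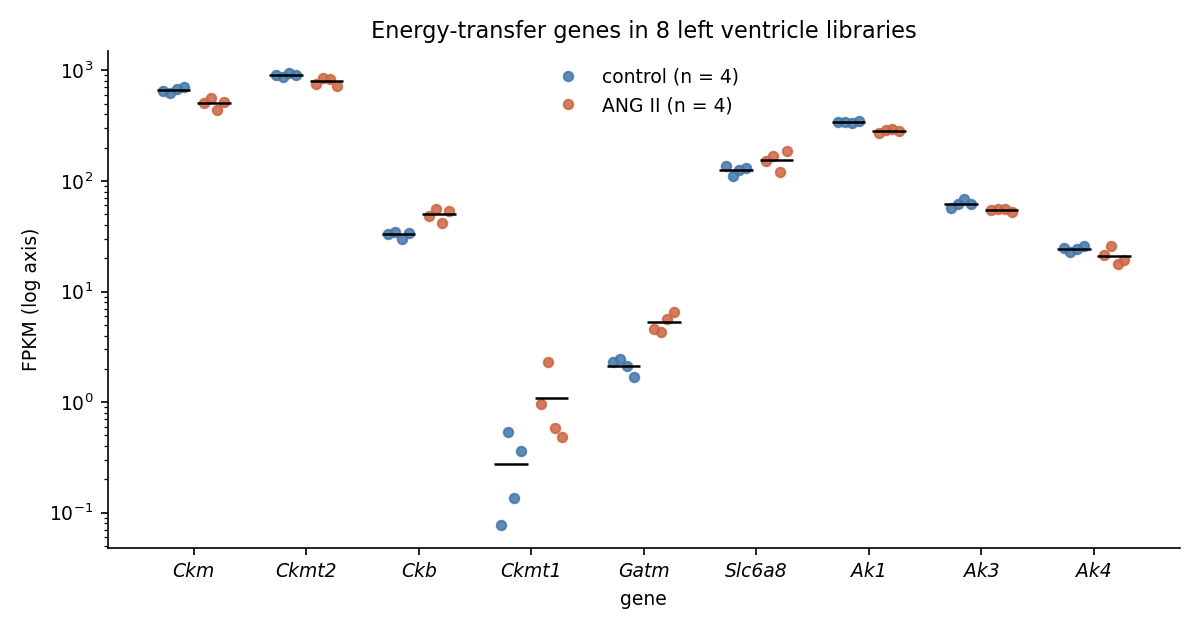
FPKM on a log axis for each of the 9 genes in 4 control (blue) and 4 ANG II (orange) libraries, 1 point per library, with the group mean as a black line. Gatm and Ckb lie higher in every ANG II library than in any control, Ckm, Ckmt2, Ak1 and Ak3 lie lower, and the groups overlap at Ckmt1, Slc6a8 and Ak4.

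The order of the mean levels was the same in both groups. In control, Ckmt2 was highest, followed by Ckm, Ak1, Slc6a8, Ak3, Ckb, Ak4, Gatm and Ckmt1, and no neighbours in this order overlapped between libraries. In ANG II, Ak3 (52.8 to 55.9 FPKM) and Ckb (41.9 to 56.3 FPKM) overlapped, and the other neighbours did not. Levels are per length, with the mean length of a gene's annotated transcripts, so the order between genes depends on that length.

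Ckm encodes the muscle form of cytosolic creatine kinase, which sits in part on the sarcomere's M-line. It stood at 644, 624, 673 and 708 FPKM in control 1 to 4 and at 506, 566, 440.2 and 514 FPKM in ANG II 1 to 4. Every ANG II library was below every control, and ANG II 3 was the lowest. The mean fell from 662 ± 36.6 to 507 ± 51.8 FPKM (SD, n = 4 each). Ckm thus had a log2 fold change of -0.39, with an SE of 0.0779, at an adjusted p of 0.00384 in limma. Relative to all genes the change was -0.54. Ckm (ENSMUSG00000030399) lies on chromosome 7 at 19404776 to 19422841 (GRCm38, plus strand), and 15.5% of its exon bases lie under A930016O22Rik on the opposite strand. Since the use of strand was not stated, reads of that overlap cannot be assigned to either gene.

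Ckb encodes the brain form of cytosolic creatine kinase, which is also made in smooth muscle and many other cells and in embryonic heart. Its values were 33.3, 34.4, 29.8 and 33.8 FPKM in control 1 to 4 and 48.2, 56.3, 41.9 and 53.8 FPKM in ANG II 1 to 4. All ANG II libraries were above all controls, ANG II 3 again being the lowest of its group. The mean rose from 32.8 ± 2.07 FPKM (SD, n = 4) to 50.05 ± 6.42 FPKM (SD, n = 4). On the log2 scale the rise was 0.59 with an SE of 0.0911, at an adjusted p of 0.000958 in limma, or 0.44 relative to all genes. Ckb (ENSMUSG00000001270) lies on chromosome 12 at 111669361 to 111672338 (GRCm38, minus strand). Of its 50-base words, 9.98% are shared with other genes' transcripts, chiefly with Gm12892.

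The call of Ckb and the lack of one for Ckm depended on how libraries were scaled. Under median-of-ratios scaling, quantile normalization, and removal of mitochondrially encoded and top 10 genes, Ckb was at 0.36 to 0.44 and Ckm at -0.62 to -0.50 on the log2 scale. Ckm was then called lower and Ckb was no longer called. Their directions held and their adjusted p stayed under 0.05 in each case, with 0.014 the highest for Ckb and 0.00136 for Ckm.

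The promoters of the 3 creatine kinases with a single RefSeq start and of Gatm are shown because these genes differ in direction of change. Each runs from 250 bases before to 50 bases after the start (RefSeq, GRCm38.p6), read 5′ to 3′ on the gene's strand. Capitals mark E-boxes (CANNTG, bound by muscle regulatory factors among others), the TATA box TATAAA and CCAAT boxes (CCAAT), searched on both strands.
Ckm, chr7:19410844-19411143, plus strand: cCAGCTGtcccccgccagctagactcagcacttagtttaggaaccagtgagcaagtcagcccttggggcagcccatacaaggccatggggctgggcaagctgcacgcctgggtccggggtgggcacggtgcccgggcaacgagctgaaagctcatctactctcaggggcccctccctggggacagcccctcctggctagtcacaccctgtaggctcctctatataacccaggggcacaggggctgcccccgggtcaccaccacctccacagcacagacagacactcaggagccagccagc
Ckmt2, chr13:91876836-91877135, minus strand: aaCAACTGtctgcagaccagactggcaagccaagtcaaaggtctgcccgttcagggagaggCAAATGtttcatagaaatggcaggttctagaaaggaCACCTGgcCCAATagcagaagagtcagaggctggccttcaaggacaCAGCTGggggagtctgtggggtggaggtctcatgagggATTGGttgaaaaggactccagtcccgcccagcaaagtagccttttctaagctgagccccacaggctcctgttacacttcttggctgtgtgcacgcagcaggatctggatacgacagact
Ckb, chr12:111672289-111672588, minus strand: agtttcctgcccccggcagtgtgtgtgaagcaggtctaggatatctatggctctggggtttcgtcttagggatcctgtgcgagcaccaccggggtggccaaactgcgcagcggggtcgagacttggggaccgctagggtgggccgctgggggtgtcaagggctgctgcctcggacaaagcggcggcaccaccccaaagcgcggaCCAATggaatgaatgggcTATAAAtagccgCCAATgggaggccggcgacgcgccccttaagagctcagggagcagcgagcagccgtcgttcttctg
Gatm, chr2:122611228-122611527, minus strand: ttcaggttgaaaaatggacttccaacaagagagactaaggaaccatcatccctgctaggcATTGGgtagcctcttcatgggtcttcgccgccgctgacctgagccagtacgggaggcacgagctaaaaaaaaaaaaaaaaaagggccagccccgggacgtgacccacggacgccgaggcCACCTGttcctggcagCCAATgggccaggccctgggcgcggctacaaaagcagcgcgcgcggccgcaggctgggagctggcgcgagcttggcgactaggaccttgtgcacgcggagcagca

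Ckmt2 held 4 E-boxes and Ckm and Gatm 1 each, and 72.3% of all 32851 promoters of this length hold at least 1. The Ckb window held none, and it was the one of the 4 with TATAAA, which 13.6% of all promoters hold. CCAAT occurred 2 times each in Ckmt2, Ckb and Gatm and was not found in the Ckm window, against 37.4% of all promoters with at least 1. These matches describe exact letters only, so a variant such as tatataa in the Ckm window was not counted.

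Ckmt2 and Ckmt1 encode the mitochondrial creatine kinases, Ckmt2 the sarcomeric form of striated muscle and Ckmt1 the ubiquitous form. Ckmt2 was at 902, 866, 939 and 899.9 FPKM in control 1 to 4 and at 759.9, 858, 837 and 718 FPKM in ANG II 1 to 4. The ANG II libraries were all lower, with ANG II 2 and control 2 the closest pair. The log2 fold change was -0.19 (SE 0.0664) and narrowly missed the test (limma adjusted p = 0.0536), while the exact two-sided permutation p was 0.0286, the smallest that 4 against 4 allows. Without ANG II 2 or ANG II 3 it passed, with adjusted p = 0.0292 and 0.0375 in limma, as it did with a pseudocount of 0.1 (0.0488), a filter of 1 FPKM (0.0357) and voom on the recovered fragments (0.0219). It did not pass in the 6 fits without 1 of the other libraries (limma adjusted p up to 0.132). Nor did it pass with no filter (0.103), no variance trend (0.0927) or a replicate block (0.0934).

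Ckmt1 was barely detected. It rested on 1, 7, 2 and 5 fragments in control 1 to 4 and on 13, 33, 8 and 7 in ANG II 1 to 4, where 3 fragments correspond to 0.202 to 0.231 FPKM. In FPKM these were 0.0770, 0.534, 0.134 and 0.364 against 0.955, 2.30, 0.589 and 0.488, so that control 2 lay above ANG II 4. It was not called (limma adjusted p = 0.0644). It passed without ANG II 4 (adjusted p = 0.041), with a pseudocount of 0.1 (0.0419) and when voom was run on recovered fragments (0.0395).

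The forms of creatine kinase were then compared with each other. The 4 forms together summed to 1597 ± 56.4 FPKM in control (SD, n = 4) and to 1351 ± 89.2 FPKM under ANG II (SD, n = 4), with no overlap (exact two-sided permutation p = 0.0286, the smallest possible). This sum depends on the scaling of the libraries, whereas the shares and ratios that follow are taken within each library, where a constant factor per library drops out. Ckb made up 2.11, 2.25, 1.81 and 2.06% of this sum in control 1 to 4 and 3.66, 3.80, 3.18 and 4.18% in ANG II 1 to 4. Its share thus rose by 1.65 percentage points, with all ANG II libraries above all controls (exact two-sided permutation p = 0.0286, the smallest possible). Per length of all exons together in place of the mean transcript length, the rise was 0.90 percentage points with the same p. Against Ckm alone, the log2 ratio of Ckb went from -4.34 ± 0.137 to -3.34 ± 0.0653 (SD, n = 4 each), a rise of 0.99 (exact two-sided permutation p = 0.0286).

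**Figure D2:**
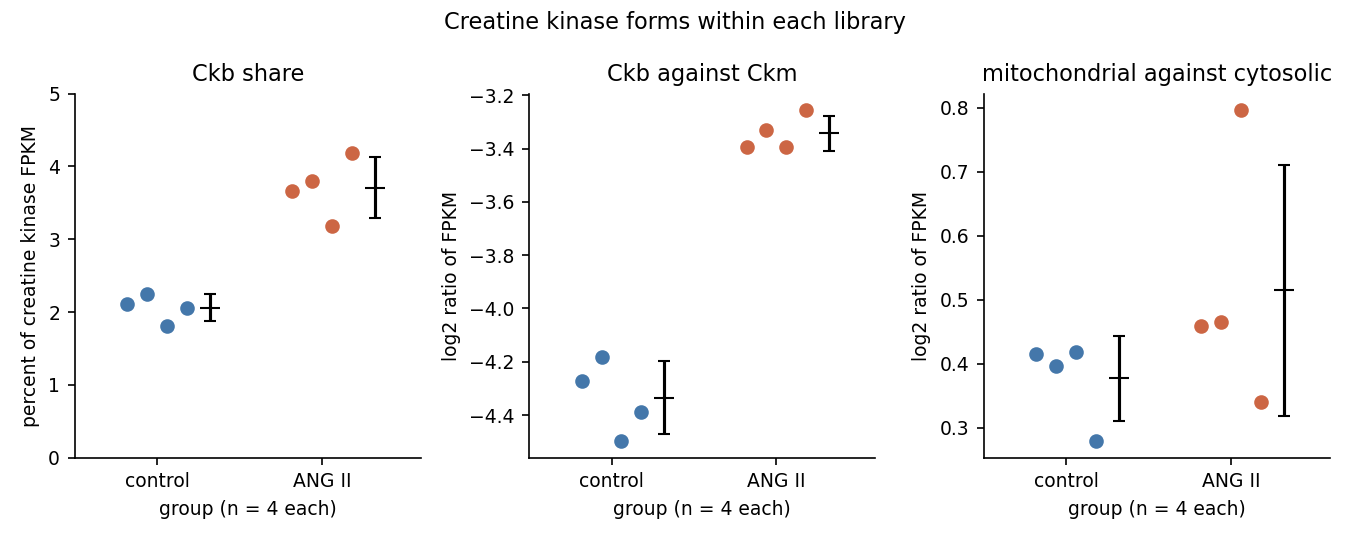
Share of Ckb in the FPKM of all 4 creatine kinases (left), log2 ratio of Ckb to Ckm (middle) and log2 ratio of the mitochondrial to the cytosolic forms (right), 1 point per library, with mean ± SD beside each group of 4; only the left axis starts at 0. The groups part fully in the left and middle panels and overlap in the right, where ANG II 3 stands highest at 0.80.

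Ckm took 41.5 ± 1.12% of creatine kinase FPKM in control (SD, n = 4) and 37.5 ± 2.86% under ANG II (SD, n = 4), again without overlap. Ckmt2 took 56.5 ± 1.14% and 58.7 ± 3.27%, and here the groups overlapped. The log2 ratio of the mitochondrial forms to the cytosolic forms was 0.38 ± 0.0662 in control (SD, n = 4) and 0.51 ± 0.196 under ANG II (SD, n = 4; exact two-sided permutation p = 0.286). The difference of 0.14 shrank to 0.044 without ANG II 3 and grew to 0.20 without ANG II 4, when it passed (exact permutation p = 0.0286).

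The coding sequences of the 4 creatine kinases were aligned in pairs. Ckm and Ckb each code for 381 residues, with 75.8% of 1146 aligned coding bases identical, and Ckmt2 (419 residues) and Ckmt1 (418 residues) share 71.6% of 1256 aligned bases. Between a cytosolic and a mitochondrial form the share was 64.6 to 67.2%.

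Gatm encodes glycine amidinotransferase, which makes guanidinoacetate, the precursor of creatine, and is best known from kidney. It was at 2.30, 2.45, 2.11 and 1.70 FPKM in control 1 to 4 and at 4.60, 4.28, 5.69 and 6.50 FPKM in ANG II 1 to 4. All ANG II libraries were higher, the closest pair being control 2 and ANG II 2. The mean rose 2.46-fold, from 2.14 ± 0.325 to 5.27 ± 1.02 FPKM (SD, n = 4 each), on 32 to 128 fragments per library. The log2 fold change was 0.99 with an SE of 0.136, at an adjusted p of 0.000484 in limma, and 0.84 relative to all genes. It stayed called with any library left out (0.90 to 1.07 on the log2 scale) and under the 3 other scalings (0.68 to 0.88). Gatm (ENSMUSG00000027199) lies on chromosome 2 at 122594467 to 122611303 (GRCm38, minus strand), and none of its 50-base words is shared with another gene's transcripts.

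Gamt, whose product turns guanidinoacetate into creatine, ranged from 1.76 to 3.58 FPKM over the 4 controls and from 2.89 to 5.07 FPKM over the 4 ANG II libraries and did not pass (limma adjusted p = 0.0893). Slc6a8, the creatine transporter, stood at 136, 109.9, 126 and 130.1 FPKM in control 1 to 4 and at 150.3, 168, 119 and 185 FPKM in ANG II 1 to 4. ANG II 3 lay below 3 of the 4 controls and the other ANG II libraries above all of them. The log2 fold change of 0.29 (SE 0.123) did not pass (limma adjusted p = 0.0962), except without ANG II 3, when it was 0.41 with an adjusted p of 0.00786. Under the 3 other scalings it was at 0.066 to 0.15. Transcripts for uptake were thus far above those for synthesis in both groups, on the per-length FPKM scale.

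Ak1, the main cytosolic adenylate kinase of muscle, was at 339.9, 339.6, 333 and 348 FPKM in control 1 to 4 and at 271, 289, 296 and 282 FPKM in ANG II 1 to 4. The groups were well apart, with a fall from 340.3 ± 6.28 to 285 ± 10.4 FPKM (SD, n = 4 each). Ak1 had a log2 fold change of -0.26, with an SE of 0.0444, at an adjusted p of 0.00172 in limma, which rose to at most 0.00779 with any library left out.

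Ak3 and Ak4 encode adenylate kinases of the mitochondrial matrix, of which Ak3 uses GTP. Ak3 was at 57.0, 61.8, 68.1 and 62.2 FPKM in control 1 to 4 and at 54.1, 55.9, 55.4 and 52.8 FPKM in ANG II 1 to 4. The groups did not overlap, but control 1 and ANG II 2 were close. The log2 fold change was -0.19 (SE 0.0578, limma adjusted p = 0.0323), and the adjusted p rose above 0.05 without ANG II 1 (0.0745), ANG II 4 (0.079), control 2 (0.0558), control 3 (0.0838) or control 4 (0.0693). Of its exon bases, 22.9% lie under genes of the opposite strand, Cdc37l1 and 1700018L02Rik, and its reads there are uncertain.

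Ak4 was at 24.8, 22.9, 24.00 and 25.8 FPKM in control 1 to 4 and at 21.4, 26.0, 17.9 and 19.2 FPKM in ANG II 1 to 4. ANG II 2 was the highest of all 8 libraries and the other ANG II libraries were below all controls. The log2 fold change of -0.21 (SE 0.103) did not pass (limma adjusted p = 0.147). Without ANG II 2 it was -0.31 and passed (adjusted p = 0.0151), without ANG II 3 it was -0.14 (adjusted p = 0.315), and under the 3 other scalings it passed (adjusted p = 0.0134 to 0.0247). Of its 50-base words, 10.2% are shared with other genes, chiefly with Ak3l2-ps. The log2 ratio of Ak4 to Ak3 was -1.35 ± 0.142 in control (SD, n = 4) and -1.38 ± 0.222 under ANG II (SD, n = 4; exact two-sided permutation p = 0.8). The 3 adenylate kinases together fell from 427 ± 6.56 to 360.2 ± 11.7 FPKM (SD, n = 4 each; exact two-sided permutation p = 0.0286), while Ak1 kept 79.7 ± 0.956% and 79.0 ± 1.07% of the sum, with overlap between the groups.

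**Figure D3:**
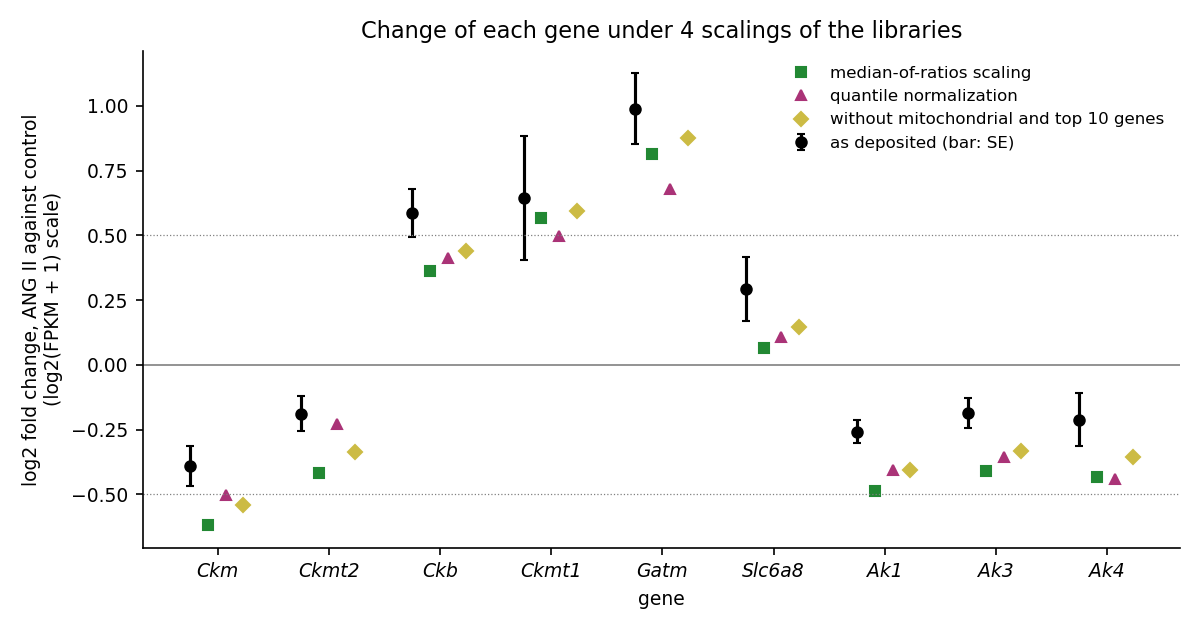
Log2 fold change of each gene, ANG II against control, with the values as deposited (black, bar: SE) and after 3 other scalings of the libraries; dotted lines mark 0.5 in either direction. Each gene keeps its sign in all 4, the other scalings lie below the deposited values throughout, and Ckm then passes below the lower line while Ckb comes to lie between the lines.

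The 5 genes with negative fold changes moved further from 0 under each of the 3 other scalings. These scalings lowered genes at large, with the median log2 fold change of all genes going from 0.15 to 0.0025, -0.044 and 0.052. In each, 5 of the 9 genes were lower at an adjusted p under 0.05, and these were the same 5. This compares with 13.1% of all genes lower under median-of-ratios scaling, 15.3% under quantile normalization and 9.09% without mitochondrially encoded and top 10 genes. Ckmt2 was then at -0.42 to -0.23 and Ak4 at -0.44 to -0.36.

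The genes were also set against the 10 cardiomyocyte markers, by subtracting the mean log2(FPKM + 1) of these markers in each library. The markers did not change alike, from a log2 fold change of -0.58 for Tnni3 to 0.053 for Ryr2. Values relative to their mean are therefore not values per cardiomyocyte. That mean was 11.49 ± 0.0273 in control (SD, n = 4) and 11.16 ± 0.0522 under ANG II (SD, n = 4), a difference of -0.33 (exact two-sided permutation p = 0.0286). Relative to it, Ckm differed by -0.057 (exact permutation p = 0.543), Ak1 by 0.075 (p = 0.0571), Ckmt2 by 0.14 (p = 0.114) and Ak4 by 0.12 (p = 0.343), with overlap between the groups at all 4. Ckb stood 0.92 higher, Gatm 1.32, Slc6a8 0.63, Ckmt1 0.98 and Ak3 0.15, each without overlap (exact permutation p = 0.0286, unadjusted for 9 genes compared). That 5 of 9 did so is no more than the 66.6% of all tested genes that lay wholly higher on this scale, and 0 of 9 lay wholly lower (0.522%). The result for 3 genes depended on the marker list. Ak3 missed this p without Myh6, Tnni3, Actc1, Myl2, Pln or Atp2a2 in the list and with the list's median in place of its mean (exact permutation p = 0.0571 to 0.0857). Without Ryr2 or without Ttn the count was 7 of 9, with Ckmt2 0.19 and 0.17 higher and Ak1 0.12 and 0.098 higher (exact permutation p = 0.0286 each). With the whole list but without ANG II 4, Ckmt2 was also 0.19 higher (exact permutation p = 0.0286).

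Markers of other cells were measured beside Ckb and Gatm, and their counts stand against the 14.0% of all tested genes called higher. Of the fibroblast markers, 6 of 6 were called higher, with a summed level of 376 to 538 FPKM in control and 1733 to 1973 FPKM in ANG II. Of the macrophage markers, 7 of 7 were called higher (167 to 211 FPKM against 429.8 to 582 FPKM). Of the smooth muscle markers, 2 of 6 were called higher, Cnn1 and Des (1322 to 1535 FPKM against 1907 to 2792 FPKM), and Des, which is also made in cardiomyocytes, went from 983 to 1886 FPKM on average. Myh11 (log2 fold change 0.043, adjusted p = 0.819) and Acta2 (-0.20, adjusted p = 0.385) did not pass in limma. Endothelial markers summed to 469 to 532 FPKM and 563 to 674 FPKM, with 1 of 6 called. Erythroid markers were higher too, with 5 of 5 called and 96.8 to 487 FPKM against 581 to 2083 FPKM. Atrial markers overlapped in sum (17.9 to 68.8 FPKM against 65.5 to 249.7 FPKM), with 1 of 4 called (Sln). Myl7 and Myl4 had large log2 fold changes of 2.38 and 2.23 but did not pass (limma adjusted p = 0.0557 each). Stard10 was at -0.32 and did not pass either. Skeletal muscle markers summed to 3.55 to 4.76 FPKM against 5.68 to 8.12 FPKM, with 1 of the 4 tested called (Tnnt3), Myh1, Myh2, Myh4 and Actn3 below the filter and Myh4 at 0 in all libraries. The nerve and Schwann cell markers, with 0 of the 4 tested called, summed to 2.22 to 5.42 FPKM against 3.71 to 5.06 FPKM. Hba-a1 and Hba-a2, in the erythroid list, are near-identical copies, and reads could be split between them. The part of these cells in the rise of Ckb and Gatm was not tested.

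The wider pathway was read from 6 lists with 40 genes, of which 34 were tested. Of these 34, 10 were higher and 4 lower at an adjusted p under 0.05, against 28.4% and 4.91% of all tested genes, and 5 were called, all higher (14.0% of all tested genes were called higher). Their median log2 fold change was 0.012, against 0.15 over all genes.

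Among the genes that hand ATP and ADP across the mitochondrial membranes, the heart's main exchanger Slc25a4 (ANT1) fell from 2478 ± 34.8 to 2121 ± 29.7 FPKM and the outer membrane channel Vdac1 from 786 ± 12.3 to 663 ± 20.3 FPKM (SD, n = 4 each). Their log2 fold changes were -0.22 and -0.25 (limma adjusted p = 0.0103 and 0.00282), neither beyond 0.5. Slc25a5 (ANT2), Slc25a31, Vdac2 and Vdac3 did not pass. Vdac2 was at 356 ± 3.67 and 357 ± 13.8 FPKM (SD, n = 4 each).

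The subunits of the AMP-activated kinase, which senses AMP, gave 3 of 7 higher by adjusted p (28.4% of all tested genes) and none called. These were Prkaa1 (log2 fold change 0.28), Prkab2 (0.34) and Prkag2 (0.28). Among the other adenylate kinases Ak5 was called, on 1 to 6 fragments in the control libraries and 10 to 30 in the ANG II libraries (log2 fold change 0.65, adjusted p = 0.00695). Ak7, Ak8 and Ak9 were below the filter.

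In the lists of AMP deaminases with the purine cycle and of adenosine and purine salvage, 2 of 5 and 2 of 6 tested genes were called higher (14.0% of all tested genes). Ampd2, an AMP deaminase, rose from 4.00 ± 0.241 FPKM (SD, n = 4) to 7.78 ± 0.386 FPKM (SD, n = 4). Its log2 fold change was 0.81 with an SE of 0.0792, at an adjusted p of 7.61e-05 in limma. Ampd3 stayed at 21.7 ± 1.90 and 21.9 ± 1.43 FPKM, and Ampd1, the skeletal muscle form, was below the filter. Adss, which begins the conversion of IMP to AMP, rose by 0.63 on the log2 scale (SE 0.104), while Adssl1, its muscle form, did not pass (adjusted p = 0.0834). Ada, which deaminates adenosine, rose by 0.82 from a low level of 0.747 ± 0.113 FPKM (SD, n = 4), and Aprt, which salvages adenine, by 0.65. Hprt, which salvages hypoxanthine, was 0.42 higher (adjusted p = 0.000252) and not called. Nt5c1a, the cytosolic nucleotidase that makes adenosine from AMP in heart, fell by 0.44 and Adk, which turns adenosine back to AMP, by 0.21, both with an adjusted p under 0.05 (0.00272 and 0.00504) and neither called. Nt5c1b was below the filter. Of the nucleoside diphosphate kinases, 1 of 6 tested was higher by adjusted p (28.4% of all tested genes), Nme7 at 0.36, and Nme3 was listed at 0 in all libraries.

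**Figure D4:**
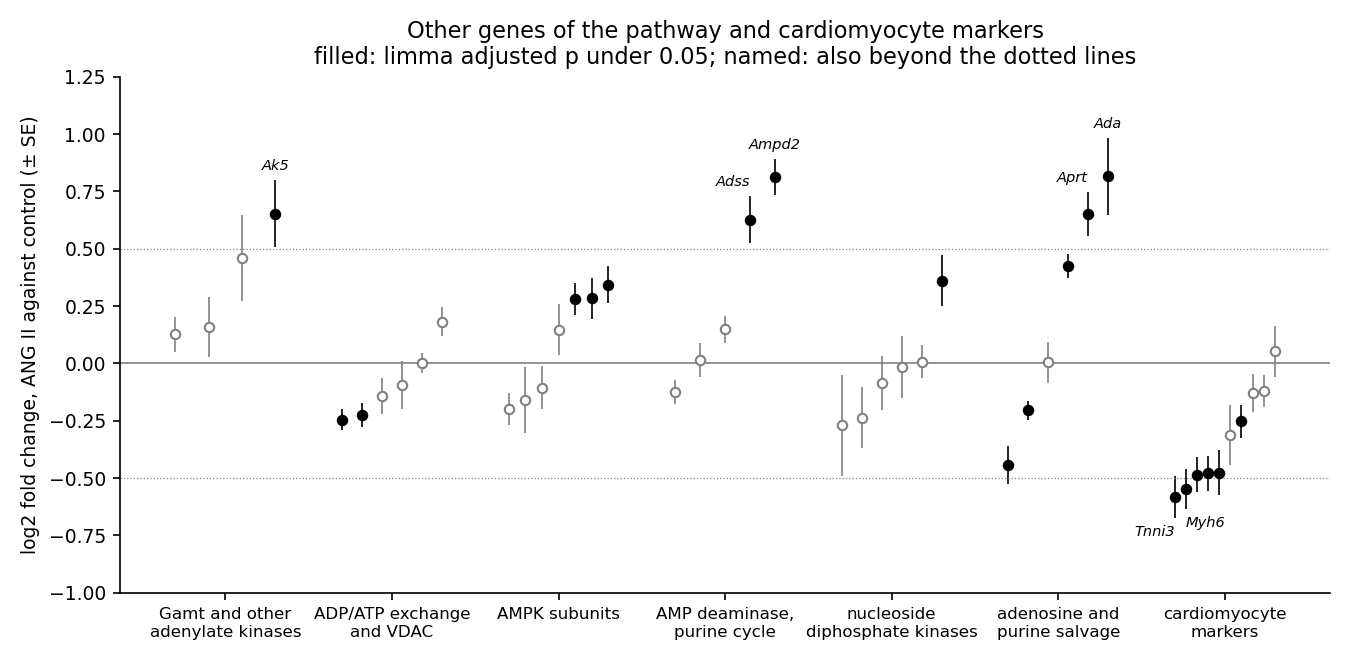
Log2 fold changes (± SE) of the tested genes of 6 lists around the creatine and adenylate system and of the cardiomyocyte markers, 1 point per gene, sorted within each list. Filled points have an adjusted p under 0.05 and named genes also lie beyond 0.5; the named genes of the pathway lists lie above 0 and the named cardiomyocyte markers below it.

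The genes most like Gatm and Ckm over the 8 libraries were found by Pearson correlation of log2(FPKM + 1) among the 11995 genes whose mean reached 1 FPKM and that had a name other than a predicted (Gm) or Rik name. The libraries fall into the groups, so these values rest largely on the difference between groups. For Gatm they were Rnd2 (r = 0.997), Pou2f2 (0.994), Ggnbp2 (0.989), Lacc1 (0.987) and Arhgef25 (0.987). For Ckm they were Fblim1 (0.993), C1qbp (0.991), Lpin1 (0.971), Atpaf2 (0.971) and Sirt5 (0.968). These are the top of longer lists, as 312 genes had an r over 0.95 with Gatm and 19 with Ckm.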

How the data were processed

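RNA-seq values of 8 left ventricles were taken from 1 table of FPKM that the authors deposited, with 1 column per library and none left out. The submitters' processing notes name Bowtie2, HISAT and RSEM without roles. The genome build and the use of strand were not given in the sources used here. Gene positions and lengths came from GENCODE M21 (GRCm38), in which 55141 of 55679 IDs were found. FPKM times the mean transcript length was a whole multiple of 1 step in each library, within 0.05 fragments for 98.1 to 98.5% of values under 60 fragments, which gave the fragments per value. Such fragments are not known to be independent molecules.

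The main fit was limma 3.58.1 in R 4.3.3 with a variance trend on log2(FPKM + 1), which understates changes of low genes, with genes under a mean of 0.1 FPKM left out. The study names limma and both thresholds. The pseudocount, the filter and base 2 were choices of this work. Single values were compared by exact two-sided permutation over 70 allocations. Nothing in the labels says whether samples of equal number are related, and their deviations from the group means correlated at -0.043 to 0.092, so no pairing was used. The study calls its samples biological replicates and describes more of them per group than the 4 in the table used here. The p-values measure the spread between the samples used here only. Coding sequences were aligned with Biopython 1.88.

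The genes and lists were chosen with earlier results of these data known, so no p-value was adjusted over a list. The text names all 9 genes, up to 3 called genes per pathway list with genes not tested, and the 5 genes most like the members with the highest and lowest fold change; other pathway and marker genes were named after their values were seen. The values of 1 gene of the pathway lists are not reported here.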

Additional observations from a re-analysis of the deposited data

How the results depend on the processing

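The directions of all 9 fold changes held in every alternative that tested them (Ckmt1 is below a filter of 1 FPKM). The 3 other scalings (median of ratios, quantile, and without mitochondrially encoded and top 10 genes) each gave 1 gene called higher, Gatm, and 1 called lower, Ckm. With no fold change threshold 3 genes were called lower and 6447 of all genes were called, and with a threshold of 1 there were 0 genes of the 9 called higher and 795 of all genes called; these follow from the thresholds. Leaving out 1 library gave 2 to 3 of the 9 called higher, 0 called lower and 2763 to 3109 of all genes called. Split by direction, 90.8% of all calls were higher as deposited, against 67.5%, 58.9% and 78.4% under these 3 scalings, which moved the median log2 fold change of all genes from 0.15 to 0.0025, -0.044 and 0.052.

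With a replicate block the calls among the 9 genes were 3, the third being Ckmt1 (limma adjusted p = 0.032), and Ak3 missed the test (0.0517), as it did with no variance trend (0.0771); 2968 of all genes were called. The exact sign-flip test over 4 pairs gave p = 0.125 for the share of Ckb (a rise of 1.65 percentage points), the smallest it can give, so it says nothing of stability. Without each library in turn, that rise was 1.49 to 1.82 percentage points, and the log2 ratio of mitochondrial to cytosolic creatine kinase differed by 0.044 to 0.20. The log2 ratio of Ak4 to Ak3 differed by -0.13 to 0.051, turning positive without control 1 (0.018) or ANG II 3 (0.051). Relative to cardiomyocyte markers, 2 to 5 genes had an exact p under 0.05 without 1 library. Ckb and Gatm kept p = 0.0286 in each case, and Ckmt1, Slc6a8 and Ak3 went to an exact permutation p of 0.0571 in some, although their groups stay wholly apart. Ckm differed by -0.090 to 0.0039, turning positive without ANG II 3. The cause of these changes was not tested. At this depth Ckmt1 and Ak5 rest on too few fragments for a firm fold. The fit with voom and the lengths of all exons together were chosen after seeing the data.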
